A study of Mus musculus with 12 samples.

Results

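Hmgcs1, Idi1, Sqle, Lss, Cyp51, Srebf2 and Insig1, genes of cholesterol supply, were followed across mouse brain and liver with and without the vault RNA gene Vaultrc5, a short non-coding RNA of the vault ribonucleoprotein particle. They were chosen by symbol from the rows of the deposited table and make up 7 of its 55450 genes. Of these, 5 encode enzymes of cholesterol synthesis and the remaining pair, Srebf2 and Insig1, regulates them. No receptor for cholesterol uptake is among the 7, so uptake is described through a list of 13 uptake and intracellular transport genes.

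The study measured total RNA in male mice aged 7 to 9 weeks. Brain and liver libraries were either wild type (Vaultrc5+/+, named flx in the sample titles) or knockout (Vaultrc5-/-), with 3 libraries in each of the 4 groups. Strain and the way the allele was made were not given in the sources used here. The labels do not state that the 3 libraries of a group came from separate animals, so the p-values measure the spread between these libraries. Nor do they state whether brain and liver libraries came from the same mice. The tests between tissues and of the interaction treat these libraries as independent.

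Cells make cholesterol from acetyl-CoA through mevalonate and squalene to lanosterol, which is then trimmed to cholesterol. The transcription factor SREBP2, encoded by Srebf2, switches on nearly every gene of this route as well as genes of lipoprotein uptake. When sterols are plentiful, the membrane protein INSIG1 holds the SREBP precursor and its escort SCAP in the endoplasmic reticulum, and Insig1 is itself a target of the pathway. The liver supplies cholesterol to the blood as lipoproteins, whereas the brain, behind its barrier, makes its own, much of it in glia for myelin.

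The promoters of Hmgcs1, Srebf2 and Insig1 are shown because, of those found, they alone hold a match to a sterol element or an E-box, letters by which SREBP factors are known to bind. The sequences come from RefSeq (GRCm38.p6), which held an entry for 6 of the 7 genes, and the 250 bases before each transcription start were searched on both strands. The motifs were chosen with these sequences in view. Only the stretch before the first exon base of the GENCODE M21 annotation is printed, 5′ to 3′ along the gene's strand (plus for all 3 genes), at chr13:119690101-119690350 for Hmgcs1, chr15:82147019-82147180 for Srebf2 and chr5:28071162-28071362 for Insig1. Capitals mark matches to the sterol element, searched in a longer form as TCACNCCAC and in a shorter form as TCACCCC. The forms overlap where both match. Capitals also mark the letters CCAAT, to which the partner factor NF-Y binds and which appear as their reverse complement when they lie on the other strand. In the promoter of Insig1 they also mark the E-box CACGTG.
Hmgcs1: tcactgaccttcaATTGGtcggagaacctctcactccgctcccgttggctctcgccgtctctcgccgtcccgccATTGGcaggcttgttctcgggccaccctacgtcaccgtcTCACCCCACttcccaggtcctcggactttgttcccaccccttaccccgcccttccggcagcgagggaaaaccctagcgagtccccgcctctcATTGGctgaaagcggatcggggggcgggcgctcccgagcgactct
Srebf2: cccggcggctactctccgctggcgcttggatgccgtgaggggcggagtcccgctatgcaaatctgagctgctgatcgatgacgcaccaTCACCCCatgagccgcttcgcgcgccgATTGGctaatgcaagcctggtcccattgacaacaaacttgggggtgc
Insig1: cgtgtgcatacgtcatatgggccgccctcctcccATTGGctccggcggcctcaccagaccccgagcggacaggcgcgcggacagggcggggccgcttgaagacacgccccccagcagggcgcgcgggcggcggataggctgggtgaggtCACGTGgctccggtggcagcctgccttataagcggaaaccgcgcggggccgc
The Hmgcs1 promoter held TCACNCCAC 137 to 129 bases before the start, a match found in 1.05% of 32851 mouse promoters of the same length. TCACCCC stood in the Hmgcs1 promoter and in that of Srebf2, at 162 to 156 bases before the start, against 4.31% of all promoters. CACGTG stood in the Insig1 promoter at 101 to 96 bases before the start, against 6.02% of all promoters. CCAAT was present in all 6 promoters and in 11 of the 12 promoters found for the other synthesis enzymes, against 33.8% of all. For Cyp51 and Idi1, every CCAAT match lay in bases that GENCODE M21 has as exon of the gene. Of the same 12 promoters, 0 held either sterol form and 3, those of Dhcr7, Hsd17b7 and Sc5d, held CACGTG. A match describes letters only.

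Expected counts summed to 14844971 to 18567381 per brain library and to 23247449 to 27155480 per liver library. Vaultrc5 had 33, 39 and 48 counts in wild-type liver libraries 1, 2 and 3, had 4, 1 and 4 in wild-type brain, and had 0 in each of the 6 knockout libraries. Tissue labels fitted their markers: 8 hepatocyte markers summed to between 74032 and 108337 CPM (counts scaled to the library size times a TMM factor, which adjusts for RNA composition) in liver against 0.698 to 439 in brain, and 8 neuron markers to between 4326 and 6651 CPM in brain against 26.0 to 34.7 in liver.

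All levels below are on the TMM scale, and statements that tissues are separate hold on it. There the 6 brain and 6 liver libraries did not overlap for 6 of the 7 genes, against 73.5% of all 20141 genes tested, and the same 6 were separate in the 3 wild-type libraries a tissue, against 82.4% of all. With counts scaled to the library total alone, the tissues were separate for Idi1, Cyp51, Insig1 and Srebf2 and overlapped for Hmgcs1, Sqle and Lss. Those 4 of 7 stand against 77.9% of all genes over the 6 libraries a tissue and 85.7% over the 3 wild-type ones, so separation is common between these tissues. On that scale the lowest liver and highest brain library were at 220 and 288 for Hmgcs1, 29.1 and 56.9 for Sqle, and 35.6 and 47.4 for Lss, in CPM without TMM factors.

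All 7 genes were well detected, the lowest value in any library being 27.8 CPM, against 0.123 to 0.169 CPM for a count of 3. Hmgcs1 encodes the cytosolic HMG-CoA synthase, an early step of the mevalonate route. It stood at 132, 180.3 and 209 CPM in wild-type brain libraries 1, 2 and 3 and at 141, 182 and 144 CPM in knockout brain. In liver it stood at 655, 298 and 463 CPM in the wild type and at 394, 642 and 539 CPM in the knockout. With TMM factors every liver library lay above every brain library, and within each tissue the genotypes overlapped.

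Idi1 encodes the isomerase that balances the isoprene building blocks. Its brain values were 29.2, 31.2 and 45.0 CPM in the wild type and 29.1, 34.8 and 30.2 CPM in the knockout. Its liver values were 306, 171 and 277 CPM in the wild type and 221, 343 and 249.9 CPM in the knockout. The tissues were far apart and the genotypes overlapped, with wild-type library 3 highest in brain and wild-type library 2 lowest in liver.

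Sqle encodes squalene epoxidase, the first oxygen-requiring step of the sterol branch. In brain it stood at 30.3, 34.3 and 41.4 CPM in the wild type and at 27.8, 37.8 and 31.0 CPM in the knockout. In liver it stood at 87.3, 39.3 and 57.6 CPM in the wild type and at 52.9, 117 and 52.6 CPM in the knockout. With TMM factors Sqle was the only member whose wild-type tissues overlapped, as wild-type liver library 2 fell below wild-type brain library 3. Knockout liver library 2 was its highest value anywhere.

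Lss encodes lanosterol synthase, which closes the sterol rings. It was nearly level over brain, at 30.5, 29.8 and 34.5 CPM in the wild type and at 30.1, 29.4 and 28.6 CPM in the knockout. Liver gave 92.9, 48.2 and 58.1 CPM in the wild type and 51.3, 71.5 and 76.4 CPM in the knockout. With TMM factors liver was above brain in every library, and the wild-type liver libraries spanned the whole knockout range.

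Cyp51 encodes lanosterol demethylase, the step after ring closure. Brain gave 39.4, 40.4 and 57.2 CPM in the wild type and 37.0, 45.9 and 39.6 CPM in the knockout. Liver gave 209.7, 136 and 217 CPM in the wild type and 168, 218 and 183 CPM in the knockout. Again the tissues were separate and the genotypes overlapped.

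Srebf2 encodes the transcription factor itself and was the only member higher in brain. Its brain values were 124, 163 and 149 CPM in the wild type and 128, 175 and 150.2 CPM in the knockout. Its liver values were 95.4, 81.4 and 82.3 CPM in the wild type and 86.0, 107 and 85.4 CPM in the knockout. All 6 brain libraries lay above all 6 liver libraries.

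Insig1, the sterol-dependent anchor, stood at 48.5, 43.7 and 62.2 CPM in wild-type brain and at 45.0, 48.5 and 41.1 CPM in knockout brain. In liver it stood at 649.6, 359 and 292 CPM in the wild type and at 318, 351 and 466 CPM in the knockout. Wild-type liver library 1 was far above the other 5 liver libraries for this gene, while the remaining liver values of the 2 genotypes were interleaved.

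**Figure D1:**
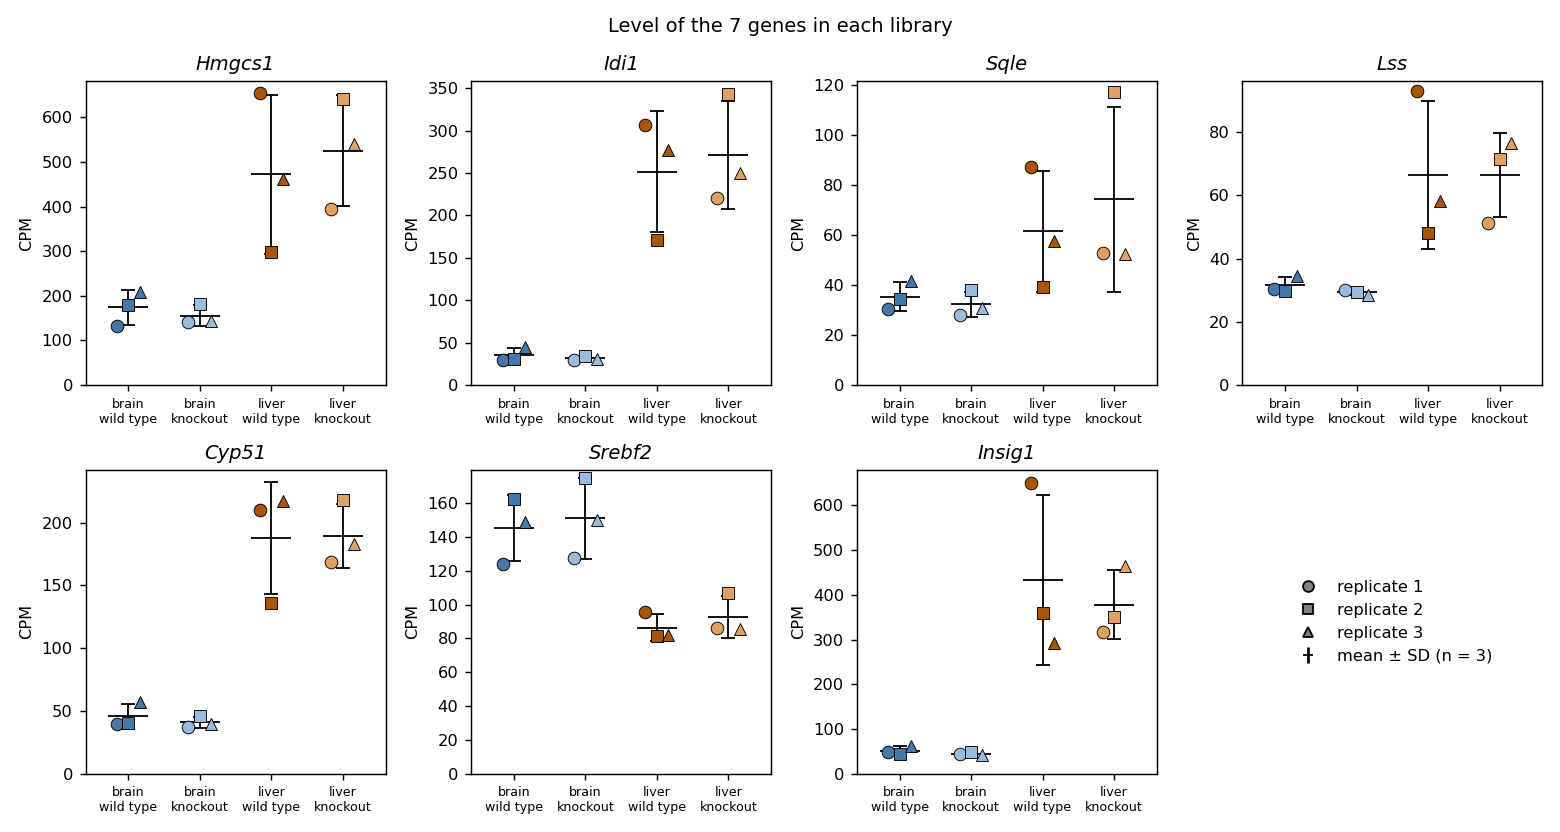
Each panel plots 1 gene, with the level in CPM on the y axis (starting at 0) and the 4 groups on the x axis; points are libraries, marked by replicate number, and bars are the mean ± SD (n = 3). On the TMM scale the liver means lie above the brain means for 6 genes and below them for Srebf2, the wild-type tissues overlap for Sqle, and wild-type and knockout points overlap in every panel.

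Levels of different genes were compared only per kilobase of exon. In wild-type brain Hmgcs1 was highest at 37.8 ± 8.52 CPM per kilobase (SD, n = 3), followed by Srebf2 at 20.2 ± 2.71, Insig1 at 16.6 ± 3.10, Cyp51 at 10.3 ± 2.26, Idi1 at 10.0 ± 2.45, Sqle at 6.38 ± 1.01 and Lss at 2.93 ± 0.234. The values of Srebf2 and Insig1 overlapped, as did those of Cyp51 and Idi1, and the other neighbours were separate. Knockout brain had the same order.

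In wild-type liver Insig1 led at 140 ± 61.4 CPM per kilobase, ahead of Hmgcs1 at 103 ± 38.9, Idi1 at 71.8 ± 20.3, Cyp51 at 42.5 ± 10.1, Srebf2 at 12.0 ± 1.09, Sqle at 11.1 ± 4.37 and Lss at 6.16 ± 2.18. The only neighbours whose values did not overlap there were Cyp51 and Srebf2. Srebf2 thus was the second of the 7 in brain and was the fifth in wild-type liver. In knockout liver Insig1 had 122 ± 25.1 and Hmgcs1 114 ± 27.0 CPM per kilobase, and Sqle had 13.4 ± 6.69 and Srebf2 12.9 ± 1.72. Both of these pairs overlapped and changed places when the longest transcript was used as the length.

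Wild-type brain was compared with wild-type liver, and the same contrast was then made in the knockout libraries, which share none with the first. Of the 7 genes, 6 were higher in liver and 1 was higher in brain in wild-type mice (edgeR quasi-likelihood F-test, Benjamini-Hochberg adjusted p under 0.05 over all genes), and the knockout libraries gave the same split. Among wild-type libraries 78.6% of all genes tested were called, 34.7% higher in liver and 43.9% higher in brain. Among knockout libraries 78.7% were called, 35.2% higher in liver and 43.5% higher in brain. Such calls are common between these tissues, so the sizes say more than the count. In bulk tissue, fewer cells of a type and less RNA per cell cannot be told apart.

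Insig1 had the largest difference of the 7 in the wild type, 8.39-fold higher in liver, with a log2 fold change (brain over liver) of -3.07 (SE 0.32, edgeR adjusted p = 6.13e-05). In the knockout it was 8.51-fold higher (log2 -3.09, SE 0.18, edgeR adjusted p = 2.72e-06). Idi1 was next among the 7, at 7.13-fold in the wild type (log2 -2.83, SE 0.27, edgeR adjusted p = 3.35e-05) and 8.74-fold in the knockout. Cyp51 was 4.09-fold higher in wild-type liver (log2 -2.03, SE 0.23) and 4.69-fold in the knockout. Insig1 and Idi1 are thus the members most skewed to liver, in either set of libraries.

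The other enzymes differed less between tissues. Hmgcs1 was 2.71-fold higher in wild-type liver (log2 -1.44, SE 0.30, edgeR adjusted p = 0.00271) and 3.41-fold in the knockout. Lss was 2.09-fold higher in wild-type liver (log2 -1.07, SE 0.24, edgeR adjusted p = 0.00371) and 2.29-fold in the knockout. Sqle was 1.73-fold higher in wild-type liver, with a log2 fold change of -0.79 (SE 0.28, edgeR adjusted p = 0.0310), and 2.33-fold in the knockout (edgeR adjusted p = 0.0100). The Sqle call in the wild type rests on single libraries: the edgeR adjusted p was 0.0801 without wild-type brain library 1, 0.0631 without brain library 2, 0.0888 without liver library 1 and 0.0564 without liver library 3. Its log2 fold change dropped to -0.46 without wild-type liver library 1, and in the knockout to -0.75 without knockout liver library 2. Without a low-count filter the wild-type Sqle value was -0.77 (edgeR adjusted p = 0.0590).

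Srebf2 went the other way, 1.69-fold higher in wild-type brain (log2 0.75, SE 0.13, edgeR adjusted p = 0.00111) and 1.61-fold higher in knockout brain (log2 0.69, SE 0.15, edgeR adjusted p = 0.00401). With TMM scaling, the transcript of the factor was higher in the tissue where those of the 5 enzymes were lower.

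These fold changes depend on how brain and liver libraries are put on one scale. Replacing TMM factors by library totals shifted the median over all genes, on the log2 scale, from 0.21 to 1.05 for wild-type and from 0.21 to 1.08 for knockout libraries, and the share of called genes that were higher in brain went from 55.8% to 74.4% and from 55.3% to 75.1%. On that scale 3 of the 7 genes, Idi1, Cyp51 and Insig1, were still called higher in wild-type liver, against 21.2% of all genes, and 4 of the 7 in knockout liver, against 20.6%. Their wild-type log2 fold changes were then -2.22 for Insig1, -1.995 for Idi1 and -1.20 for Cyp51, and that of Srebf2 was 1.59 (1.57 in the knockout). Of the rest, Hmgcs1 had -0.60 (edgeR adjusted p = 0.0952) and Lss -0.23 (edgeR adjusted p = 0.398). Sqle turned to 0.05, still below the median of all genes on that scale. In the knockout, Sqle (-0.33, edgeR adjusted p = 0.344) and Lss (-0.32, edgeR adjusted p = 0.111) lost their calls. Taken relative to the median of all genes, Hmgcs1 stood at -1.65, Lss at -1.28 and Srebf2 at 0.54 in the wild type on either scale.

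**Figure D2:**
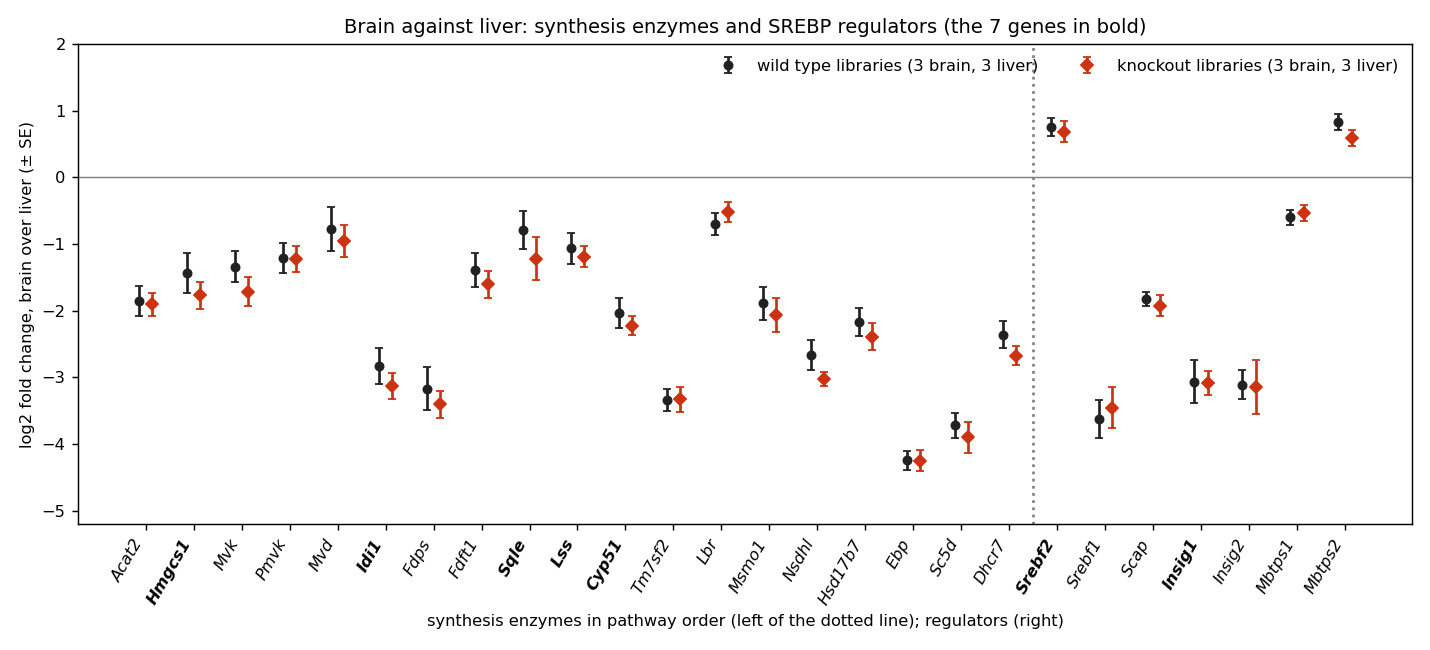
The y axis gives the log2 fold change of brain over liver with its SE for wild-type libraries (black circles) and knockout libraries (red diamonds), and the x axis lists synthesis enzymes in pathway order and, right of the dotted line, 7 SREBP regulators, with the 7 genes in bold. All enzymes shown lie below 0 with TMM scaling, and Srebf2 and Mbtps2 are the only genes shown above it.

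The rest of the pathway was read from lists. Of the 16 other synthesis enzymes, 14 were called higher in wild-type liver and 15 in knockout liver, against 34.7% and 35.2% of all genes. None was called higher in brain, and their median log2 fold change was -2.03 and -2.23. With library totals, where 21.2% and 20.6% of all genes were called higher in liver, the calls in liver were 10 and 12. On that scale 3 enzymes in the wild type and 2 in the knockout had values above 0, as had 71.7% and 71.8% of all genes. Among those called, Ebp, the sterol isomerase, had -4.25 in both genotypes and Sc5d, the lathosterol desaturase, had -3.72 in the wild type and -3.90 in the knockout. Tm7sf2, a sterol reductase, had -3.34 in the wild type.

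Among the 5 other genes of the SREBP machinery, 4 were called higher in liver and 1 in brain, in both genotypes. The shares of all genes higher in liver were 34.7% in the wild type and 35.2% in the knockout, and those higher in brain 43.9% and 43.5%. Srebf1, the related factor that mainly drives fatty acid synthesis, had -3.62 in the wild type and -3.46 in the knockout, opposite in sign to Srebf2. Insig2, the second anchor protein, had -3.11 and -3.14, close to Insig1, and Scap, the escort, had -1.82 and -1.93. Mbtps2, one of the proteases that release the active factor, was higher in brain at 0.83 and 0.59. With library totals, 3 of the 5 were called higher in liver in each genotype, and the calls in brain were 1 in the wild type and 2 in the knockout. On that scale 21.2% and 20.6% of all genes were called higher in liver. Those called higher in brain were 11635 of 18850 genes in the wild type and 11668 of 18785 in the knockout.

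Of the 13 uptake and transport genes, 10 were called higher in liver and 3 in brain, in both genotypes. With library totals the calls in liver were 7 in the wild type and 8 in the knockout, against 21.2% and 20.6% of all genes. Lipa, the lysosomal acid lipase that frees cholesterol from lipoproteins, had a log2 fold change of -4.16 in the wild type and -4.36 in the knockout. The receptor most skewed to brain was Lrp8, at 68.4 to 85.2 CPM over the 6 brain libraries and 0.105 to 0.395 CPM in liver, near the level of 3 counts.

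Knockout was compared with wild type within each tissue. None of the 7 genes passed the test in brain or in liver, and edgeR called 0% of 18075 genes in brain and 0% of 15329 in liver. At an unadjusted p under 0.05 there were 122 genes in brain (0.675%) and 536 in liver (3.5%), and none of the 7 was among them. DESeq2 called 0 genes in brain and 10 in liver, again with none of the 7, and with the replicate number as a block edgeR called 2 in liver, neither of them a member.

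In brain the estimates were small and mostly on the lower side. Insig1 had the lowest, with a log2 fold change (knockout over wild type) of -0.21 and a 95% confidence interval from -0.57 to 0.15. Hmgcs1 had -0.17 (interval -0.64 to 0.29), Idi1 -0.18 (-0.62 to 0.26), Cyp51 -0.17 (-0.59 to 0.24), Sqle -0.15 (-0.54 to 0.24) and Lss -0.12 (-0.34 to 0.11). Srebf2 had 0.04 (-0.33 to 0.42). Unadjusted p-values ran from 0.207 to 0.787 and every edgeR adjusted p was 1.00. The median of the 7 was -0.17, against -0.01 over all genes, and 6 of the 7 lay below 0, as did 51.7% of all genes tested.

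The other enzymes had the same sign in brain: 15 of 16 were below 0, with a median of -0.14 and none called. This rested in part on wild-type brain library 3. Without it, 4 of the 7 members and 9 of the 16 other enzymes were below 0, the medians were -0.01 and -0.03, Idi1 turned to 0.05 and Cyp51 to 0.03. Srebf2 turned to -0.06 without wild-type brain library 1 and to -0.06 without knockout brain library 2. The same wild-type library 3 was highest for oligodendrocyte RNA: 8 myelin and oligodendrocyte markers summed to 2642, 1620 and 5477 CPM in wild-type brain libraries 1, 2 and 3 and to 1927, 2985 and 1814 CPM in the knockout. None of the 8 markers was at 0 in all 3 libraries of a brain group, all 8 had estimates below 0 in the knockout, and none was called. Among markers of other brain cells 2 of 7 for astrocytes (median -0.13), 6 of 8 for neurons (median 0.05), 1 of 6 for choroid plexus (median -0.25), 6 of 6 tested for microglia (median 0.15) and 2 of 6 for endothelium (median -0.03) were above 0, none of them called. One endothelial marker had an unadjusted p of 0.00612, the smallest over all genes in brain. The choroid plexus sum ran from 3.32 to 51.8 CPM in wild-type and from 5.69 to 62.0 CPM in knockout brain. The part of these cells in the enzyme values was not tested.

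In liver the estimates lay mostly above 0, and the intervals were wider than in brain except for Srebf2. Sqle had the highest, 0.28 with a 95% confidence interval from -0.85 to 1.42. Hmgcs1 had 0.16 (-0.61 to 0.94), Idi1 0.12 (-0.52 to 0.75), Srebf2 0.11 (-0.17 to 0.40), Cyp51 0.02 (-0.44 to 0.49), Lss 0.01 (-0.70 to 0.72) and Insig1 -0.19 (-0.98 to 0.61). The edgeR adjusted p-values ran from 0.992 to 0.999. The narrowest interval was that of Srebf2 and the widest that of Sqle.

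The median of the 7 in liver was 0.11, against 0.01 over all genes, and 6 of 7 were above 0, as were 51.3% of all genes. The sign again hung on single libraries. Without wild-type liver library 2, 2 of the 7 were above 0, with Hmgcs1 at -0.08, Idi1 at -0.10, Cyp51 at -0.17 and Lss at -0.18. Without knockout liver library 2 none was, with Sqle at -0.22. Lss also turned negative without wild-type library 3 and without knockout library 3, at -0.08 and -0.11, and Insig1 turned positive, at 0.23, without wild-type library 1. With library totals the median of all genes went to -0.04 with 41.7% above 0, and 4 of the 7 were above 0. Lss and Cyp51 then both stood at -0.03, and relative to that median both were still 0.01 above it. Their place relative to the median is no check, as the change of scale moves all genes by nearly the same amount. Of the 16 other enzymes 11 were above 0, with a median of 0.04, and with library totals 7 were. Their count above 0 was 3 without wild-type liver library 2 (median -0.11) and 6 without knockout liver library 2 (median -0.03). It was 13 without wild-type liver library 1 (median 0.31).

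Markers of other cells also lay above 0 in knockout liver, with none called. All 7 microglia and Kupffer cell markers did (median log2 fold change 0.52, 2 with an unadjusted p under 0.05), and their sum was 167 to 223 CPM in wild-type and 184 to 386 CPM in knockout liver. All 5 red cell markers did (median 0.95, 2 with an unadjusted p under 0.05), with sums of 108 to 151 and 136 to 163 CPM. So did all 6 endothelial markers (median 0.10, 1 with an unadjusted p under 0.05), with sums of 307 to 371 and 342 to 383 CPM, and all 5 cholangiocyte markers (median 0.30). Of 8 hepatocyte markers 2 were above 0 (median -0.13). None of the markers was at 0 in every library of a liver group, and the part of these cells in the values of the 7 genes was not tested.

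**Figure D3:**
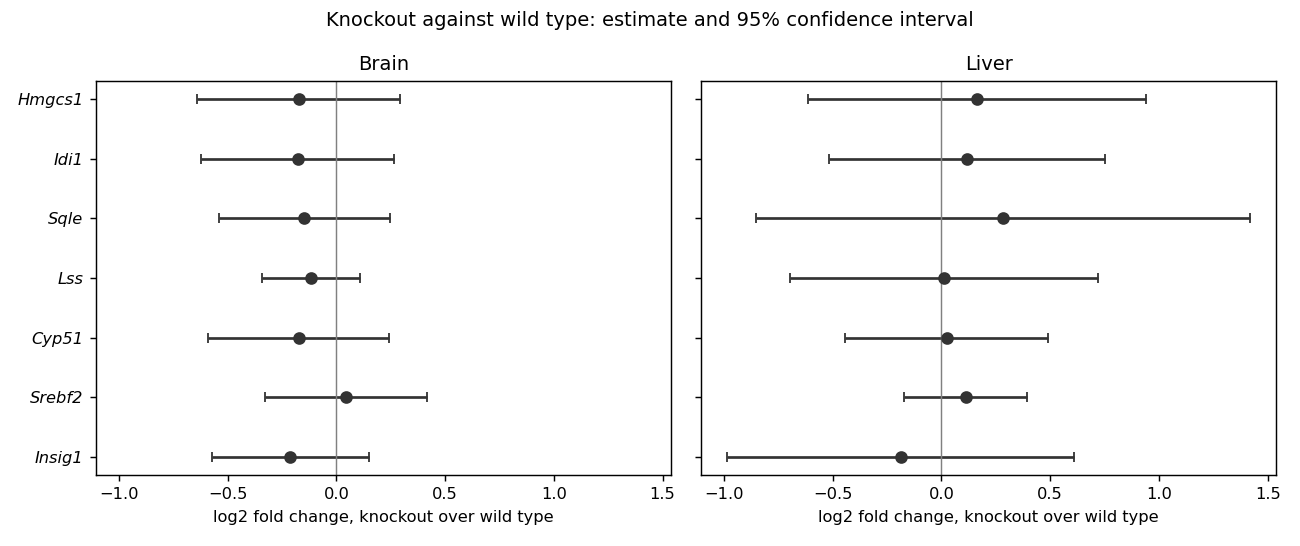
Points give the log2 fold change of knockout over wild type for each of the 7 genes in brain (left) and liver (right), and bars the 95% confidence interval from the edgeR fit. Every interval includes 0, and the liver intervals are wider than those of brain except for Srebf2.

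Partners of the 7 showed no call either. In brain and liver respectively, the log2 fold change of knockout over wild type was -0.16 and -0.32 for Srebf1, -0.04 and -0.01 for Insig2, and -0.07 and 0.04 for Scap. In the SREBP machinery list 0 of 5 genes lay above 0 in brain and 2 of 5 in liver. In the uptake list 6 of 13 lay above 0 in brain and 4 of 11 tested in liver.

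The difference between the tissues' knockout effects was tested as an interaction. Its estimates (liver effect minus brain effect, log2) ran from 0.00 for Insig1 to 0.41 for Sqle, whose 95% confidence interval was -0.63 to 1.45, and every edgeR adjusted p was 1.00. The call share over all 20141 genes was 0%, and 489 of them (2.43%) stood under an unadjusted p of 0.05, none of them among the 7. DESeq2 called 1 gene and edgeR with the replicate block 2 genes, all outside the 7.

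What stood out in liver, for these genes other than Srebf2, was the spread between libraries of one genotype. In liver the within-group SD of log2 CPM was 0.617 for Sqle, 0.474 for Hmgcs1, 0.469 for Insig1, 0.405 for Lss, 0.392 for Idi1 and 0.296 for Cyp51, against a median of 0.148 over 10354 genes with a mean of at least 5 CPM. Sqle was more variable than 96.7% of those genes and Cyp51 than 84.9%. Srebf2, at 0.158, was more variable than 54.5%. From the lowest to the highest liver library, Sqle differed 2.98-fold, Insig1 2.22-fold, Hmgcs1 2.20-fold, Idi1 2.00-fold and Srebf2 1.31-fold, so the transcript of the factor was steadier than those of the enzymes.

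Brain was steadier for most of the 7. The within-group SD ran from 0.0826 for Lss, more variable than 14.6% of 11631 genes, to 0.279 for Hmgcs1, more variable than 76.7%. The median over those genes was 0.163. For Srebf2 alone the SD was larger in brain (0.213) than in liver.

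The libraries that were high or low were largely the same for the different enzymes. Averaged over the 7 genes, the log2 deviation from the tissue mean was 0.38 in wild-type liver library 1, -0.44 in library 2 and -0.08 in library 3, and -0.22, 0.31 and 0.04 in knockout liver libraries 1, 2 and 3. All 7 genes were above the tissue mean in wild-type liver library 1 and all 7 below it in wild-type library 2 and knockout library 1. The highest and lowest libraries were both wild type. In brain all 7 were above the mean in wild-type library 3 (average 0.30) and all 7 below it in knockout library 1 (average -0.16).

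**Figure D4:**
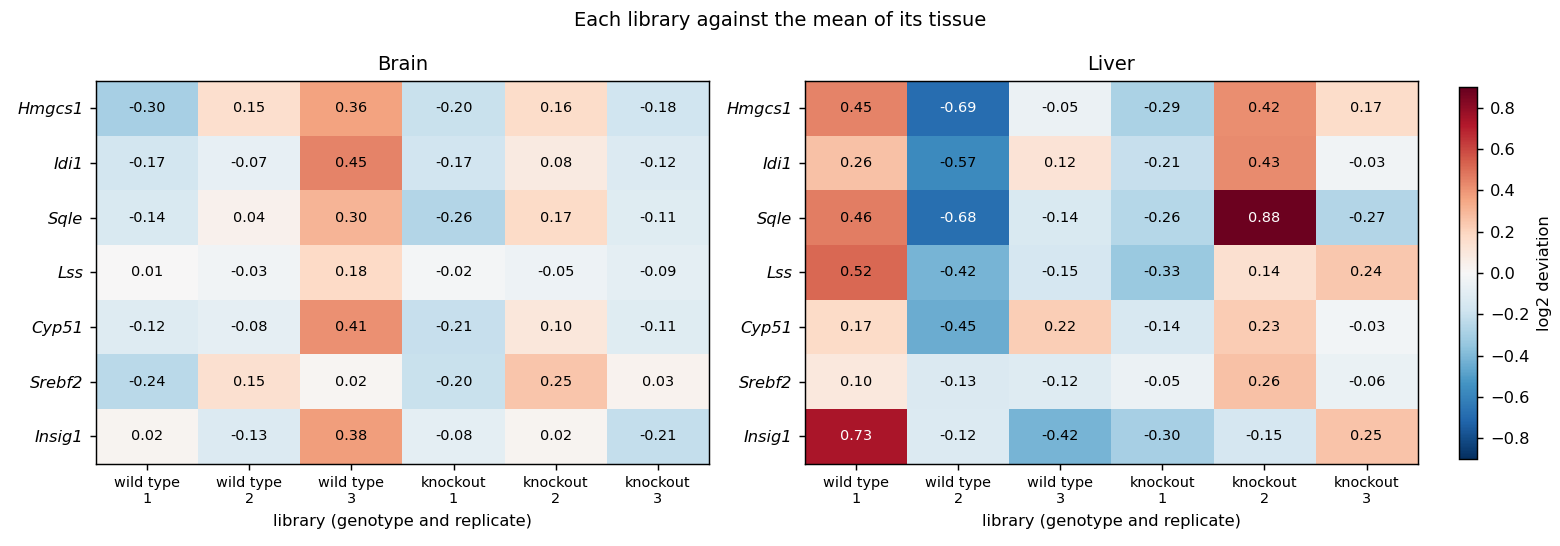
Rows are the 7 genes and columns the 6 libraries of brain (left) and liver (right); the colour and the printed number give the log2 deviation of a library from the mean of its tissue. Whole columns share a sign, such as wild-type liver libraries 1 (high) and 2 (low) and wild-type brain library 3 (high). Insig1 is opposite in sign to all the enzymes in knockout liver library 2.

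Insig1 did not follow the enzymes in every liver library. In knockout liver library 2, where Sqle was 0.88 above the tissue mean and Idi1 0.43, Insig1 was -0.15. In wild-type library 3 Insig1 was -0.42, while Cyp51 was 0.22 and Idi1 0.12 but Sqle was -0.14, Lss -0.15 and Hmgcs1 -0.05. Over the 6 liver libraries the Pearson r of log2 levels had a median of 0.868 among the 5 enzymes (10 pairs, 0.66 to 0.963) and of 0.292 between Insig1 and the enzymes (5 pairs, 0.16 to 0.822). In brain the enzymes had a median r of 0.859 among themselves (0.571 to 0.992), Insig1 with the enzymes 0.882, and Srebf2 with the other 6 genes 0.40 (-0.158 to 0.703). In liver Srebf2 with the other 6 had a median r of 0.678 (0.295 to 0.953). These values describe 6 libraries that share tissue and both genotypes, and no test was made of them.

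Knockout liver library 2, high for 6 of the 7 genes, also differed in markers of other cells. Its 5 cholangiocyte markers summed to 154 CPM against 33.6 to 53.5 CPM in the other 5 liver libraries, and its 7 microglia and Kupffer cell markers to 386 CPM against 167 to 231 CPM. None of these was at 0 in all 3 libraries of a liver group. Wild-type liver library 1, also high for the 7 genes, had cholangiocyte and Kupffer sums of 37.6 and 167 CPM. The part of these cells in the enzyme values was not tested.

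The genes whose library pattern was most like the mean of the 7 were sought among all genes outside the 7 with at least 5 CPM, as a description over 6 libraries per tissue. In liver they were Lysmd4 (r 0.996), Prps1 (0.993), Fdft1 (0.975), Ppif (0.975) and Phldb2 (0.973). In brain they were Il18 (0.999), Nrip3 (0.989), Limk1 (0.988), Agpat4 (0.987) and Map7d2 (0.986). With the 7 included, 10354 genes in liver and 11631 in brain met that level, and in liver Hmgcs1 itself had an r of 0.984. One of the 5 in liver, Fdft1, is squalene synthase, the step that feeds Sqle.

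The other 16 enzymes had a median r with the mean of the 7 of 0.768 in liver and 0.867 in brain. Over all genes compared the median r was -0.08 in liver and 0.03 in brain, 1.04% and 5.61% reached 0.8, and 92.6% and 79.8% were under 0.5. In liver 7 of the 16 reached 0.8 or more, led by Fdft1, Dhcr7 (0.968), Msmo1 (0.951), Mvd (0.944) and Hsd17b7 (0.939), and 4 were under 0.5, namely Ebp, Sc5d, Tm7sf2 and Lbr. In brain 10 reached 0.8 and 3 were under 0.5, namely Ebp, Tm7sf2 and Lbr. Ebp, Tm7sf2 and Lbr were thus under 0.5 in both tissues. A list of core clock genes, used for contrast, had a median r of -0.06 (-0.402 to 0.167) over 13 genes in liver and 0.04 (-0.912 to 0.35) over 14 in brain.

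By position (GRCm38, GENCODE M21, 1-based), Hmgcs1 (ENSMUSG00000093930.2) lies on chromosome 13 from 119690379 to 119708260 and Idi1 on chromosome 13 from 8885501 to 8892451. Sqle lies on chromosome 15 from 59315077 to 59331192 and Srebf2 on chromosome 15 from 82147181 to 82205379. Lss lies on chromosome 10 from 76531588 to 76557138. On chromosome 5, Cyp51 runs from 4081145 to 4104746 on the minus strand and Insig1 from 28071363 to 28078662. Exons of another gene overlap 4 of them on the other strand: Gm48342 shares 557 bases with Hmgcs1, Gm48574 323 with Idi1, 4930483K19Rik 381 with Lss and Akap9 166 with Cyp51. Whether the authors' counts used strand was not given in the sources used here, so reads in those stretches cannot be assigned with certainty. The counts of Idi1 were fractional in all 12 libraries and those of the other 6 genes whole.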

How the data were processed

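Brain and liver RNA of wild-type and Vaultrc5 knockout males was sequenced in 12 libraries, 3 per group. Per the labels' protocols, TRIzol RNA was treated with DNase, depleted of ribosomal RNA and sequenced as single-end stranded total RNA. The authors deposited expected counts per gene, not normalized. The submitters' processing notes name cutadapt, STAR and mm10, and the counting tool is not given in the sources used here. Between 5.06% and 5.71% of a library's values were fractional, so counts were rounded for the tests.

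Tests used edgeR 4.0.16 (R 4.3.3, quasi-likelihood F-test, robust, TMM, filterByExpr with minimum count 10 and total 15, Benjamini-Hochberg threshold 0.05), fitted on the whole table with the 6 libraries of each contrast and all 12 for the interaction. SE is the absolute log2 fold change over the square root of F. CPM use TMM factors over all 12 libraries, from 0.708 to 1.38. Depth gives 3 counts at 0.123 to 0.169 CPM, which covers counting error only. The scripts were tested on simulated data whose spread between libraries was set lower than that fitted here. The simulation therefore does not show how often a real change would be called at the spread of these libraries. Alternatives were DESeq2 1.42.0, its size factors, library totals, no filter beyond 1 count, a mean of at least 1 CPM, a single fit of all libraries, the replicate block and each library left out. Counts of members and lists under each alternative, and of members higher in liver, were added after seeing the data. In liver, same-numbered wild-type and knockout libraries deviated together (r 0.289, 0.289 and 0.36 over 13324 genes), which is taken as pairing by replicate number in the titles. The labels name no animal, litter or batch that the numbers share. Estimates, SEs, p-values and intervals come from the fit without the replicate block unless an alternative is named. Between brain and liver, same-numbered libraries had r of 0.0805, 0.0421 and 0.0793 in the wild type. In the knockout they had 0.00664, 0.0809 and -0.0236.

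The members and lists were chosen with earlier results of these data known. Genes named outside the 7 follow a rule: Srebf1, Insig2 and Scap always, up to 3 called genes with the largest fold changes per list and comparison, and the 5 genes most like the 7 per tissue. Mbtps2, Lbr, Dhcr7, Msmo1, Mvd and Hsd17b7 were named after their values were seen. Some genes under the rule are not reported here. Marker lists covered hepatocytes, neurons, astrocytes, oligodendrocytes, choroid plexus, cholangiocytes, endothelium, red cells, and microglia with Kupffer cells.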

Additional observations from a re-analysis of the deposited data

How the results depend on the processing

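No call of the 7 genes between genotypes appeared under any alternative run, and the tissue calls of Idi1, Cyp51, Insig1 and Srebf2 held under all of them. Library totals left 3 of the 7 called higher in wild-type liver and turned Sqle there to 0.049. They moved the median of all genes up as well, and Sqle stayed below it. In knockout against wild-type liver, library totals put Lss at -0.031 and Cyp51 at -0.025. The median of all genes was -0.036 there, and both stayed above it. The interaction of Insig1 was -0.0044 with library totals and -0.0070 without a filter. The medians of all genes were then -0.021 and -0.0080, and Insig1 lay above both, as it did in the main fit. Genes called between genotypes in liver numbered 10 with DESeq2, 4 without a filter, 2 with the replicate block and 0 to 1 with a library left out, against 0. For the interaction they numbered 1 with DESeq2 and 2 with the replicate block. The block changed no call of the 7 genes. In knockout against wild-type liver it gave 0.23 (SE 0.66) for Sqle and 0.21 (SE 0.45) for Hmgcs1. Without the block their SEs were 0.45 and 0.32. The SE in liver was larger with the block for all of the 7 but Srebf2, which had 0.12 in both fits. In brain, the numbers met the pairing rule for 2 of the 3 pairs (r 0.584, 0.593 and 0.00568), and the block called 0 genes there. With a library left out, brain estimates of knockout over wild type ran from -0.064 to 0.15 for Srebf2, -0.30 to 0.050 for Idi1 and -0.27 to 0.032 for Cyp51. Liver estimates ran from -0.084 to 0.48 for Hmgcs1, -0.22 to 0.63 for Sqle, -0.012 to 0.19 for Srebf2, -0.10 to 0.29 for Idi1, -0.18 to 0.34 for Lss, -0.17 to 0.14 for Cyp51 and -0.41 to 0.23 for Insig1. Interaction estimates ran from -0.087 to 0.75 for Sqle, -0.070 to 0.21 for Srebf2, -0.081 to 0.43 for Lss, -0.012 to 0.31 for Cyp51 and -0.22 to 0.41 for Insig1. The cause of these changes was not tested. By depth, all 7 genes stood far above the level of 3 counts in every library.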
